A study of Mus musculus with 6 samples.

Results

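The tumour necrosis factor (TNF) superfamily was followed in 2 sorted subsets of macrophages from regenerating mouse muscle, through the genes of its ligands, its receptors and the TRAF adaptors that bind the receptors inside the cell. The members were chosen by gene symbol and not by a measured difference, though with earlier results of these data known. They comprise every gene whose symbol begins with Tnfsf or Tnfrsf, the genes Tnf, Lta, Ltb, Ltbr, Cd40, Cd40lg, Fas, Fasl, Cd27, Cd70, Ngfr and Eda2r, and Traf1 to Traf6. Of 19938 genes represented by a probe set with a single symbol, 46 met the rule: 15 ligands, 26 receptors and 5 TRAFs. Each of the 46 had 1 such probe set. Tnfsf12, Tnfsf13 and Traf3 had none and were not analysed here.

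The Ly6C- F4/80high and the Ly6C+ F4/80low subset were both sorted from each of 3 mice of the strain B6.129P2-Lyzstm1(cre)Ifo/J. This strain carries Cre recombinase in the lysozyme locus that is active in myeloid cells, so both subsets share that allele. In all mice cardiotoxin, which destroys muscle fibres, had been injected into the tibialis anterior 2 days before. Blood-lineage cells positive for CD45 were enriched on magnetic beads and sorted with antibodies to the antigens that name the subsets, and each sample went on 1 Affymetrix array, 6 in all. The sources used here state neither the age and sex of the mice nor any floxed gene.

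As background, TNF superfamily ligands are membrane proteins that act as trimers, many of them also after being shed, and cluster receptors on neighbouring cells. Receptors with a death domain can assemble a complex that activates caspases, while most others recruit TRAFs and ubiquitin ligases that switch on NF-kB, either through the IKK complex or through the kinase NIK and the precursor encoded by Nfkb2. Macrophages of injured muscle are a known source of TNF, and the family also carries signals between macrophages and lymphocytes.

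Values are log2 expression levels made by the authors with RMA, and every difference is the Ly6C- F4/80high value less the Ly6C+ F4/80low value. Genes were compared with limma, and a gene was called when its p, adjusted over all 19938 genes by the Benjamini-Hochberg method, was under 0.05. A level of 5.44, under which the means of 95% of 1194 olfactory and vomeronasal receptor genes fell, served as the background. Pairs of arrays within a subset correlated at 0.990 to 0.993 over all probe sets and pairs across subsets at 0.979 to 0.982. All 7 macrophage markers, among them Adgre1, Csf1r and Cd68, lay above the background on all 6 arrays, and 3 were higher and 3 lower. Of the members 28 were above the background on all 6 arrays, 12 under it on all 6, and 6 on either side of it. In sorted bulk RNA, fewer cells of a type and less RNA per cell cannot be told apart.

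Most called members were lower in the Ly6C- F4/80high subset. Of the 46, 4 were called higher, or 8.7%, against a background of 19.5% of all genes, and 14 were called lower, or 30.4%, against a background of 14.3%. The median difference of the members was -0.18, and that of all genes -0.06. With a common median they were -0.11 and 0.02, and after quantile normalization -0.12 and -0.01. As deposited, the medians of the arrays over all probe sets were 5.75 to 5.80 in the Ly6C- F4/80high subset and 5.84 to 5.85 in the Ly6C+ F4/80low subset. Tnfsf14 and Traf1 were lower by at least 2-fold, a size that 1.02% of all genes passed, and no member was higher by as much, against 1.91% of all genes. The 3 arrays of one subset were clear of the 3 of the other for 5 members in the higher direction and 17 in the lower, against 24.4% and 23.6% of all genes. Of the 18 called members 17 moved the same way within each of the 3 mice. The arrays of those 17 did not overlap between the subsets, which fixes the sign in each mouse, so this is no separate support.

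How many were called depended on single arrays and on scaling. The count of lower members was 8 without the mouse 1 Ly6C- F4/80high array or that of mouse 3, 7 without the mouse 1 Ly6C+ F4/80low array, and 6 without mouse 1 or mouse 3, while the higher count was 2 without mouse 1 and 1 without mouse 3. With the arrays set to a common median 9 were lower and 4 higher, and with all probe sets tested 7 were lower. Over all genes 3887 were called higher and 2861 lower, and 4789 and 1737 with a common median. The lower count over all genes was 1866 without the mouse 1 Ly6C- F4/80high array and 1790 without that of mouse 3. It was 2168 without the mouse 1 Ly6C+ F4/80low array, 1574 without mouse 1, 1321 without mouse 3 and 1696 with all probe sets tested. Without the mouse 2 Ly6C- F4/80high array more members were lower than in the reported fit, and so were more of all genes, at 3290. Fas, Tnfsf9, Tnfsf14, Traf1 and Tnfrsf26 kept their calls under all 21 alternatives.

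**Figure D1:**
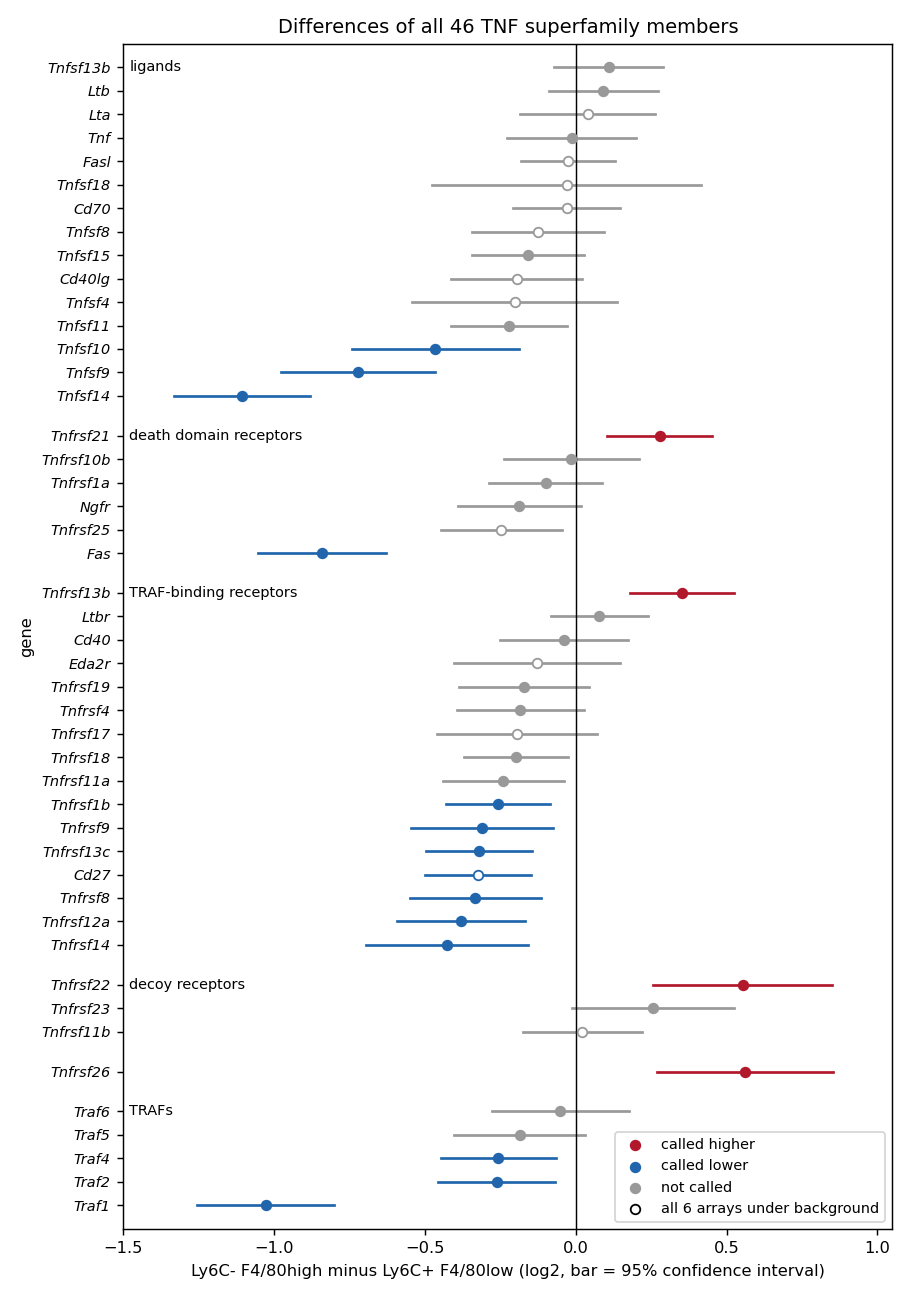
Difference between the subsets for all 46 members (x axis, Ly6C- F4/80high minus Ly6C+ F4/80low, log2), grouped by role down the y axis, with bars for 95% confidence intervals from limma and open circles for genes under the background on all 6 arrays. Tnfsf14, Traf1, Fas and Tnfsf9 stand farthest left, between -1.11 and -0.72, and Tnfrsf26 and Tnfrsf22 farthest right, at 0.56 and 0.55.

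Among the 15 ligands, in the Ly6C- F4/80high cells 3 were lower and 0 higher, while 12 were not called. The shares were 20% lower and 0% higher, against 14.3% and 19.5% of all genes. By limma, 0 ligands had an unadjusted p under 0.05 in the higher direction. Tnfsf14 encodes LIGHT, a ligand of the lymphotoxin beta receptor and of the receptor encoded by Tnfrsf14. It read 7.43, 7.29 and 7.53 in the Ly6C- F4/80high arrays of mice 1, 2 and 3, against 8.35, 8.65 and 8.57 in the Ly6C+ F4/80low arrays. Every Ly6C- F4/80high array lay below every Ly6C+ F4/80low array, and the difference of -1.11 (SE 0.10, limma adjusted p = 2.96e-05), a 2.16-fold lower level, was the largest of any member.

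Tnfsf9, the CD137 ligand that co-stimulates T cells, read 8.23, 7.81 and 7.83 in the Ly6C- F4/80high arrays, against 8.60, 8.69 and 8.74 in the Ly6C+ F4/80low arrays. It was lower, with a log2 difference of -0.72 (SE 0.11, limma adjusted p = 0.000903). The difference was -0.37 in mouse 1, whose Ly6C- F4/80high array stood above those of the other mice, and -0.88 and -0.91 in mice 2 and 3. Tnfsf10 encodes TRAIL, a ligand that can kill cells through death receptors, and read 5.90, 5.60 and 5.48 on the Ly6C- F4/80high arrays, against 6.33, 6.08 and 5.97 on the Ly6C+ F4/80low arrays. Its arrays did not overlap, with differences of -0.43, -0.48 and -0.49 in mice 1, 2 and 3 and -0.47 overall (SE 0.12, limma adjusted p = 0.0164). The Tnfsf10 call was lost without the mouse 3 Ly6C- F4/80high array (limma adjusted p = 0.0685), the mouse 1 Ly6C+ F4/80low array (0.0580), mouse 2 (0.0717) or mouse 3 (0.0564), and when all probe sets of the array were tested (0.0624).

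Tnf itself, the founding inflammatory cytokine of the family, was not called. It read 10.23, 9.99 and 9.96 in the Ly6C- F4/80high arrays and 10.19, 10.03 and 10.001 in the Ly6C+ F4/80low arrays, so the subsets overlapped. The difference was -0.01, with a 95% confidence interval of -0.23 to 0.20 (limma adjusted p = 0.929). Tnfsf13b, the B cell survival factor BAFF, differed by 0.11 (interval -0.07 to 0.29), and Tnfsf11, the osteoclast factor RANKL, by -0.22 (interval -0.41 to -0.03, limma adjusted p = 0.0730). Ltb, a subunit of membrane lymphotoxin, lay near the background with 2 of 3 Ly6C- F4/80high and 1 of 3 Ly6C+ F4/80low arrays above it.

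Of the ligands 7 were never above the background. Lta, which encodes soluble lymphotoxin, the T cell ligands Cd40lg and Fasl, and the co-stimulatory ligands Cd70, Tnfsf4, Tnfsf8 and Tnfsf18 were under 5.44 on all 6 arrays, and Tnfsf15, the ligand of the Tnfrsf25 product, on all 3 Ly6C- F4/80high arrays and 1 Ly6C+ F4/80low array. None of these 8 was called, and no fold is given for them. Tnfsf18 varied most, between 3.87 and 4.82 among the Ly6C- F4/80high arrays, all of it under the background. Among markers of T cells, Cd3d and Cd3g were under the background on all 6 arrays as well, but Cd3e and Cd28 were above it on all 6, with Cd3e lower (-0.45) and Cd28 higher (0.57).

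**Figure D2:**
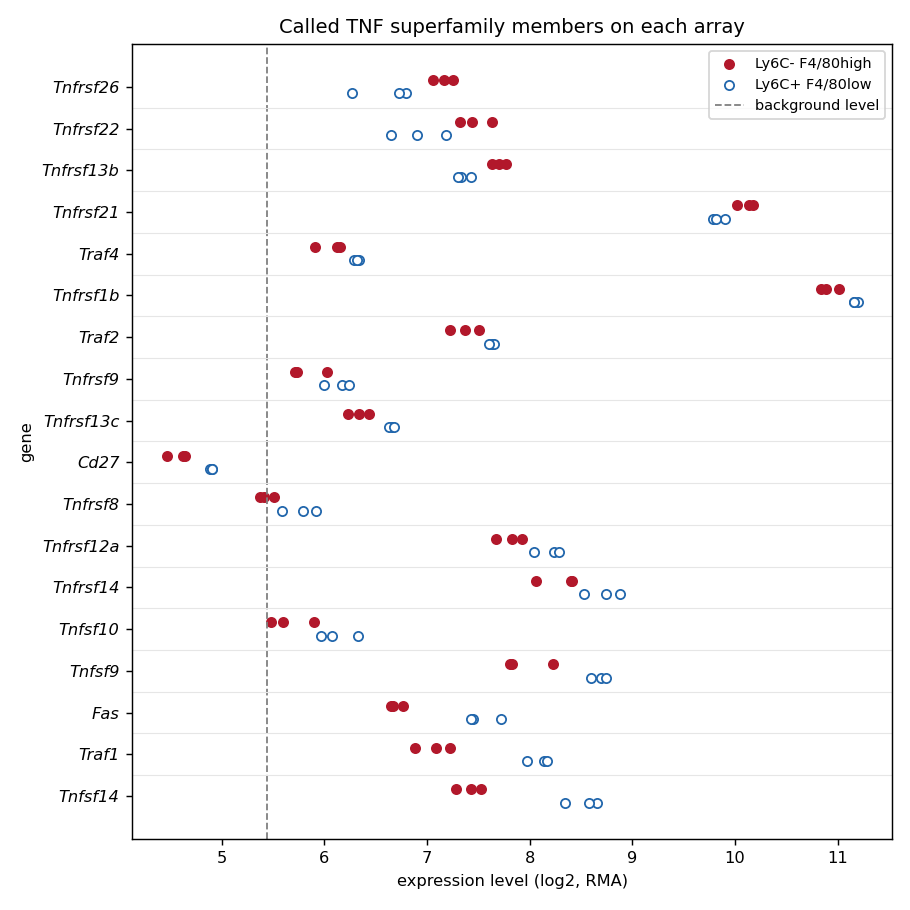
Level of the 18 called members on each array (x axis, log2 RMA value; 1 gene per row), filled for the 3 Ly6C- F4/80high arrays and open for the 3 Ly6C+ F4/80low arrays, with the background of 5.44 as a dashed line. Filled and open points overlap only for Tnfrsf9, and Cd27 lies left of the dashed line on every array.

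Of the 6 receptors with a death domain 1 was lower, 1 higher and 4 not called. Each share was 16.7%, near the 14.3% lower and 19.5% higher of all genes. Fas, the receptor of Fas ligand and a trigger of apoptosis, read 6.76, 6.66 and 6.64 in the Ly6C- F4/80high arrays, against 7.45, 7.72 and 7.43 in the Ly6C+ F4/80low arrays. The subsets did not overlap, and the level was 1.79-fold lower, with a log2 difference of -0.84 (SE 0.09, limma adjusted p = 0.000106). Tnfrsf21, death receptor DR6, went the other way, with 10.17, 10.13 and 10.02 on the Ly6C- F4/80high arrays, against 9.90, 9.79 and 9.81 on the Ly6C+ F4/80low arrays, arrays that did not overlap. Its difference was 0.28 (SE 0.08, limma adjusted p = 0.0206).

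The Tnfrsf21 call was a weak one. It was lost after quantile normalization (0.24, limma adjusted p = 0.0520), after cyclic loess normalization (0.21, limma adjusted p = 0.0750) and in 6 of the 9 fits that left out an array or a mouse. Those left out the mouse 1 Ly6C- F4/80high array, the mouse 2 or 3 Ly6C+ F4/80low array, or any one of the mice (limma adjusted p = 0.0605 to 0.107). Tnfrsf1a, the main receptor of soluble TNF, differed by -0.10 (interval -0.29 to 0.09, limma adjusted p = 0.378) and Tnfrsf10b, the TRAIL receptor of the mouse, by -0.02 (interval -0.24 to 0.21). Ngfr, the p75 neurotrophin receptor, differed by -0.19 (limma adjusted p = 0.141), and Tnfrsf25, death receptor DR3, was under the background on all 6 arrays.

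Of 16 receptors that signal through TRAFs, in the Ly6C- F4/80high cells 7 were lower, 1 was higher and 8 were not called. The shares were 43.8% lower and 6.25% higher, against 14.3% and 19.5% of all genes. Tnfrsf14, the HVEM receptor of LIGHT, read 8.41, 8.40 and 8.07 in the Ly6C- F4/80high arrays, against 8.88, 8.75 and 8.53 in the Ly6C+ F4/80low arrays. The arrays did not overlap, and the difference was -0.43 (SE 0.12, limma adjusted p = 0.0207), with a within-mouse value of -0.47, -0.35 and -0.46. Tnfrsf12a encodes Fn14, the receptor of the TWEAK cytokine, which is known for its role in injured muscle. It read 7.68, 7.83 and 7.92 on the Ly6C- F4/80high arrays, against 8.24, 8.04 and 8.28 on the Ly6C+ F4/80low arrays, without overlap, and was lower, with a log2 difference of -0.38 (SE 0.10, limma adjusted p = 0.0120).

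Tnfrsf1b, the receptor TNFR2 that carries no death domain, read 10.84, 11.01 and 10.88 in the Ly6C- F4/80high arrays, against 11.15, 11.20 and 11.16 in the Ly6C+ F4/80low arrays. It was lower, with a log2 difference of -0.26 (SE 0.08, limma adjusted p = 0.0266), a 1.20-fold difference on arrays that did not overlap. Tnfrsf9, the CD137 receptor, read 5.73, 6.03 and 5.71 on the Ly6C- F4/80high arrays, against 6.17, 5.99 and 6.24 on the Ly6C+ F4/80low arrays, so the arrays overlapped. Its difference of -0.31 (limma adjusted p = 0.0454) was 0.03 in mouse 2, and with the mouse as a replicate block it was not called (limma adjusted p = 0.0861). Tnfrsf8, the CD30 receptor, had 5.37, 5.51 and 5.42 in the Ly6C- F4/80high arrays, 1 of them above the background, against 5.79, 5.92 and 5.59 in the Ly6C+ F4/80low arrays (difference -0.33, limma adjusted p = 0.0240). Cd27, a receptor of lymphocytes, lay under the background throughout, at 4.46, 4.64 and 4.63 in the Ly6C- F4/80high arrays, against 4.89, 4.91 and 4.91 in the Ly6C+ F4/80low arrays. It was called at -0.32 (limma adjusted p = 0.0102), and no fold is given for it. Among all 6684 genes under the background on all 6 arrays the median difference was -0.11 and 11% were called lower.

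Leaving out single samples ended most of these receptor calls. Setting the arrays to a common median or testing all probe sets ended those of Tnfrsf1b, Tnfrsf8 and Tnfrsf9, and testing all probe sets ended that of Tnfrsf14. Tnfrsf14 was not called without the mouse 3 Ly6C- F4/80high array, the mouse 1 or 2 Ly6C+ F4/80low array, mouse 1 or mouse 2 (limma adjusted p = 0.0539 to 0.0769). Tnfrsf12a was not called without the mouse 1 Ly6C- F4/80high array (0.0504), mouse 1 (0.116) or mouse 3 (0.0528), and Cd27 without mouse 1 (0.0744) or mouse 3 (0.0609). Tnfrsf1b kept its call in 2 of 9 fits, those without the mouse 2 Ly6C- F4/80high array and without mouse 2, and had limma adjusted p = 0.0536 to 0.149 in the others. Tnfrsf9 kept its call in 3, those without either array of mouse 2 or without mouse 2, and Tnfrsf8 in 3, those without the mouse 2 Ly6C- F4/80high array, the mouse 3 Ly6C+ F4/80low array, or mouse 3. Their limma adjusted p in the other fits was 0.111 to 0.324 for Tnfrsf9 and 0.0633 to 0.156 for Tnfrsf8.

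The receptors of the B cell factor BAFF moved apart. Tnfrsf13b encodes TACI, which macrophages are also known to carry, and read 7.77, 7.64 and 7.70 in the Ly6C- F4/80high arrays, against 7.42, 7.33 and 7.30 in the Ly6C+ F4/80low arrays. It was higher by 0.35 (SE 0.08, limma adjusted p = 0.00597), with 0.34, 0.31 and 0.40 within mice 1, 2 and 3. Tnfrsf13c, the BAFF receptor, read 6.43, 6.34 and 6.23 on the Ly6C- F4/80high arrays, against 6.66, 6.63 and 6.68 on the Ly6C+ F4/80low arrays and was lower, with a log2 difference of -0.32 (SE 0.08, limma adjusted p = 0.0109). Both calls were lost without mouse 3 (0.33 with limma adjusted p = 0.0673 for Tnfrsf13b, -0.26 with 0.114 for Tnfrsf13c). The third receptor gene, Tnfrsf17 for BCMA of plasma cells, was under the background on all arrays. Of 6 B cell markers measured, 2 were higher, Cd22 by 1.38 and Cd79b by 0.53, and Ms4a1 and Cd79a were under the background. The log2 of the summed B cell marker levels was 8.79 to 8.99 in the Ly6C- F4/80high arrays and 8.25 to 8.28 in the Ly6C+ F4/80low arrays, and the part of B cells in the Tnfrsf13b difference was not tested.

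Cd40, the receptor of T cell help, and Ltbr, the lymphotoxin beta receptor, were measured well above the background and were not called. Cd40 read 8.53, 8.35 and 8.18 in the Ly6C- F4/80high arrays and 8.42, 8.38 and 8.37 in the Ly6C+ F4/80low arrays, a difference of -0.04 (interval -0.25 to 0.17). Ltbr differed by 0.08 (interval -0.08 to 0.24). Tnfrsf11a, the RANK receptor of osteoclast precursors, read 9.23, 9.10 and 9.06 on the Ly6C- F4/80high arrays, against 9.49, 9.38 and 9.24 on the Ly6C+ F4/80low arrays. Its arrays did not overlap, but its difference of -0.24 missed the threshold (limma adjusted p = 0.0650). The co-stimulatory receptors Tnfrsf4 (OX40) and Tnfrsf18 (GITR) and the TROY receptor gene Tnfrsf19 differed by -0.18, -0.20 and -0.17 and were not called. Tnfrsf18 was above the background on 0 of 3 Ly6C- F4/80high and 1 of 3 Ly6C+ F4/80low arrays, and Tnfrsf19 on 2 and 3. Eda2r, the receptor of ectodysplasin A2, was under the background on all arrays.

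Of the 3 decoy receptor genes 1 was higher in the Ly6C- F4/80high subset, as was the related receptor gene Tnfrsf26. The decoy share was 33.3%, against 19.5% of all genes. Tnfrsf22, a decoy receptor that binds TRAIL without a death domain, read 7.63, 7.32 and 7.44 in the Ly6C- F4/80high arrays, against 6.90, 7.18 and 6.65 in the Ly6C+ F4/80low arrays. It was higher by 0.55 (SE 0.13, limma adjusted p = 0.00963), without overlap, but by 0.14 in mouse 2 against 0.73 and 0.79 in mice 1 and 3. Without mouse 1 or mouse 3 it was not called (limma adjusted p = 0.0889 and 0.0727).

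Tnfrsf26, which is related to the decoy receptors, read 7.06, 7.26 and 7.17 on the Ly6C- F4/80high arrays, against 6.27, 6.80 and 6.73 on the Ly6C+ F4/80low arrays, without overlap. It was higher by 0.56 (SE 0.13, limma adjusted p = 0.00822) and by 0.79, 0.46 and 0.44 within mice 1, 2 and 3. Tnfrsf23, the other decoy receptor, read 7.33, 7.24 and 7.09 on the Ly6C- F4/80high arrays, against 6.84, 7.24 and 6.82 on the Ly6C+ F4/80low arrays, and its difference of 0.26 was not called (limma adjusted p = 0.126). It was 0.00 in mouse 2, and without the mouse 2 Ly6C+ F4/80low array it was called at 0.39 (limma adjusted p = 0.0161), as it was without mouse 2 (0.38, limma adjusted p = 0.0358). That array was the highest of its subset for all of Tnfrsf22, Tnfrsf23 and Tnfrsf26. The 3 genes are related in sequence, and whether their probes share signal was not tested. The soluble decoy Tnfrsf11b, osteoprotegerin, was under the background on all 6 arrays.

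Of the 5 measured TRAFs 3 were lower (60%, against 14.3% of all genes) and 2 were not called. Traf1, an adaptor without ligase activity whose gene is known to be switched on by NF-kB, read 7.09, 7.23 and 6.88 in the Ly6C- F4/80high arrays, against 7.97, 8.14 and 8.17 in the Ly6C+ F4/80low arrays. It was lower, with a log2 difference of -1.03 (SE 0.10, limma adjusted p = 4.80e-05), 2.04-fold, and of -0.89, -0.91 and -1.29 within mice 1, 2 and 3. Traf2, which carries ubiquitin ligases to the TNF receptor complexes, read 7.23, 7.37 and 7.51 in the Ly6C- F4/80high arrays, against 7.63, 7.65 and 7.61 in the Ly6C+ F4/80low arrays. Traf4, another adaptor of the family, read 5.90, 6.15 and 6.12 in the Ly6C- F4/80high arrays, against 6.34, 6.29 and 6.31 in the Ly6C+ F4/80low arrays. Neither gene had overlapping arrays.

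Both of these smaller TRAF differences, -0.26 each, were near the threshold (limma adjusted p = 0.0408 and 0.0411). They were not called with a common median, with all probe sets tested, or with the mouse as a replicate block (for the block, limma adjusted p = 0.0608 and 0.0657). Without single arrays or mice, Traf2 kept its call only without the mouse 3 Ly6C- F4/80high array, and Traf4 only without that of mouse 2, with limma adjusted p = 0.0535 to 0.245 in the other fits. Traf6, the adaptor of CD40 and of Toll-like receptors, differed by -0.05 (interval -0.28 to 0.18), with the sign turned by a common median (0.03) and without the mouse 1 Ly6C- F4/80high array (0.02), and Traf5, an adaptor of CD40 and the lymphotoxin beta receptor, by -0.19 (limma adjusted p = 0.165).

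**Figure D3:**
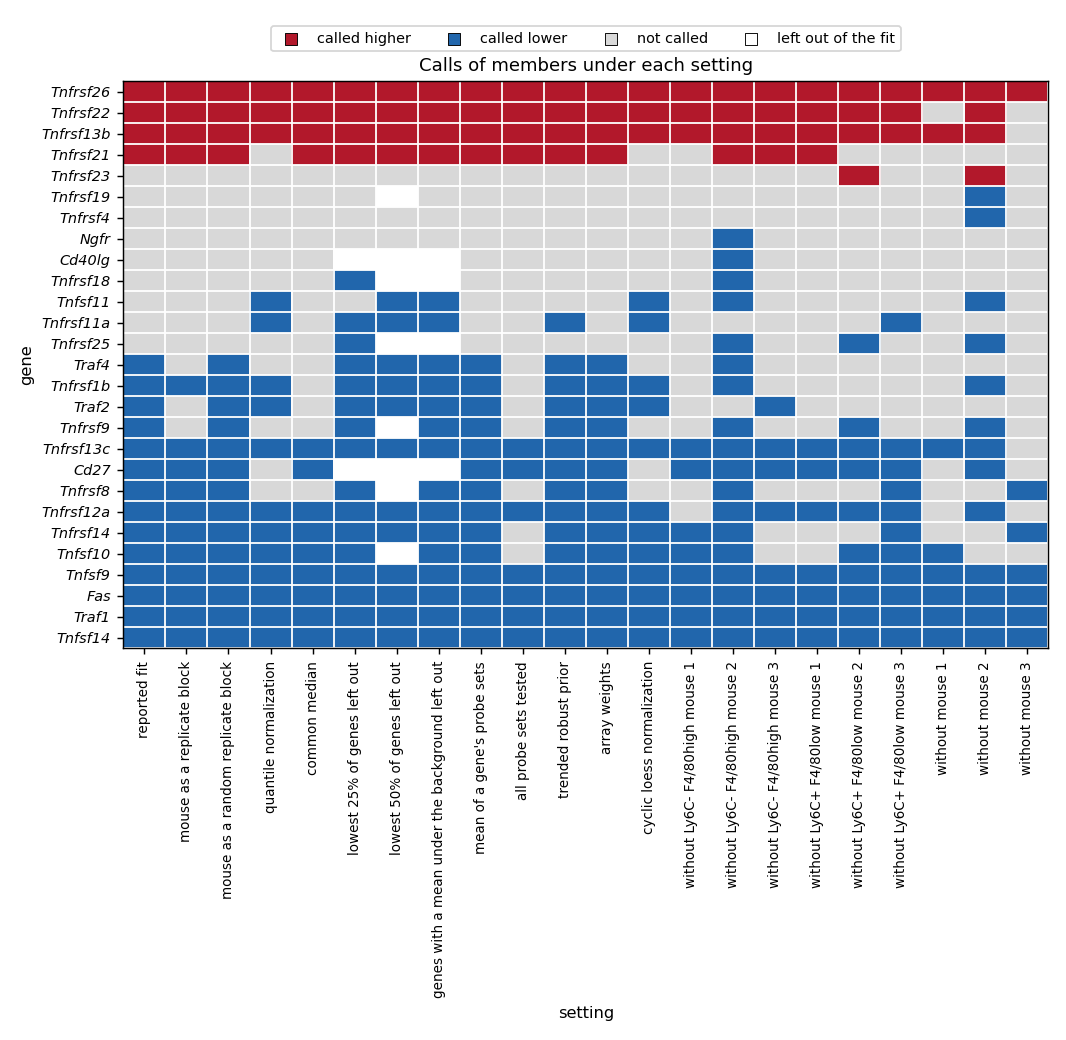
Call of each member (rows, from the most positive to the most negative difference) under the reported fit and 21 alternatives (columns); red is called higher in Ly6C- F4/80high, blue called lower, grey not called and white left out of the fit. The 27 members called in at least 1 column are shown, and Tnfrsf26, Tnfsf9, Fas, Traf1 and Tnfsf14 keep their colour throughout.

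Known ligand and receptor partners were set side by side. Of 24 pairs with both genes measured, 10 had both above the background on all 6 arrays. In 3 of these both partners were called. Of the 28 members above the background on all 6 arrays, 14.3% were higher and 42.9% lower. Of all genes above it on all 6 arrays, 30.5% were higher and 15.2% lower. Whether partners were called together more often than those member shares give was not tested. Tnfsf14 and its receptor gene Tnfrsf14 were both lower (-1.11 and -0.43), as were Tnfsf9 and Tnfrsf9 (-0.72 and -0.31), while Tnfsf10 was lower and its decoy Tnfrsf22 higher (-0.47 and 0.55). In 5 pairs 1 partner was called, among them Tnf with Tnfrsf1b and Tnfsf14 with Ltbr. Neither partner was called for Tnf with Tnfrsf1a (-0.01 and -0.10) and for Tnfsf11 with Tnfrsf11a (-0.22 and -0.24). Fas was above the background on all arrays while Fasl was under it on all of them, and the same held for Cd40 and Cd40lg.

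Promoter windows of 5 called members are printed below with the letters of NF-kB-like motifs in capitals. Tnfsf14, Traf1 and Fas were chosen because they had the largest differences that were lower. Tnfrsf9 and Tnfrsf13b were the called members with a window that held such letters. They are the 250 bases before a transcription start in RefSeq, build GRCm38.p6, written 5′ to 3′ along the gene. Tnfrsf9 has 2 annotated starts, of which the second is shown, and the window of the first held no such letters.
Tnfsf14 promoter, chr17:57194182-57194431, minus strand: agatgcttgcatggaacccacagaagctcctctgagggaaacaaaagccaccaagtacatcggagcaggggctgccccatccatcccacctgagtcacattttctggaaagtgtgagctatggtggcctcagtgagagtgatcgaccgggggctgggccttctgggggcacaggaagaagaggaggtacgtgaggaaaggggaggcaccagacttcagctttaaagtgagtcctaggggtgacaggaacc
Traf1 promoter, chr2:34961773-34962022, minus strand: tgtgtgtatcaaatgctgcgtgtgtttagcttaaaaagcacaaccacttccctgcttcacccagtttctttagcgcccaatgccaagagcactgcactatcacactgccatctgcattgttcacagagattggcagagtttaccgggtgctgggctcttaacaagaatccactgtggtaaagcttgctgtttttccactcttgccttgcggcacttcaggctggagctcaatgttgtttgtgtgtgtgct
Fas promoter, chr19:34290409-34290658, plus strand: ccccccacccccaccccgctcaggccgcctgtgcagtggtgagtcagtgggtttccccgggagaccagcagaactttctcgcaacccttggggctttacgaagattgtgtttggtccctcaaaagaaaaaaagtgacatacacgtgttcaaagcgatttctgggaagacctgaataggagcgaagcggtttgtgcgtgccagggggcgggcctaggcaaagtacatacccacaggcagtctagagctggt
Tnfrsf9 promoter, chr4:150927749-150927998, plus strand: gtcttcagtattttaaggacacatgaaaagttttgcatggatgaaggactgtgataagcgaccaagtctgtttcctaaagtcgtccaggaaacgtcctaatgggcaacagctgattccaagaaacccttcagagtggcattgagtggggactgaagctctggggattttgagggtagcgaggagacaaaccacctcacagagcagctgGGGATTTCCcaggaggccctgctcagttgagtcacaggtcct
Tnfrsf13b promoter, chr11:61126505-61126754, plus strand: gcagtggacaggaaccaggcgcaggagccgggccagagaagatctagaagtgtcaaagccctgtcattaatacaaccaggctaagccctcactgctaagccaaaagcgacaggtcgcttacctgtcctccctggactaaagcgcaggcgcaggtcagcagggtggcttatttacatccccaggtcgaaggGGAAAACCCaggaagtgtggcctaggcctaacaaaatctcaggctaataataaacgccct

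The motifs searched were GGNNTTTCC and GGGNNTTCC on both strands, which overlap where a site fits both. In the Tnfrsf9 window both fell on GGGATTTCC, from 42 to 34 bases before the start, and in the Tnfrsf13b window both fell on the opposite strand, where the site reads GGGTTTTCC from 60 to 52 bases before the start. No match lay in the windows of Tnfsf14, Traf1 and Fas. Of 37 members with a window, 4 held a match, or 10.8%, against 9.43% of 27018 genes. Those with a window included 13 members called lower and 2 called higher. The called members Tnfsf9, Tnfrsf22 and Tnfrsf26 had no window and were not searched. The other matches were in Ltb and Tnfrsf25, neither of them called. By single window, 8.36% of 32841 held either motif, 4.93% the first and 4.98% the second. A match is a string of letters and not a measured binding site.

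The rest of the pathway was read from 59 measured genes outside the family, in 5 lists, of which 3 were higher (5.08%, against 19.5% of all genes) and 23 lower (39.0%, against 14.3%), with a median of -0.13. With a common median 6 were higher and 21 lower. In the list of NF-kB subunits and inhibitors 8 of 9 were lower and 0 higher, with a median of -0.63, and by limma 0 had an unadjusted p under 0.05 in the higher direction. Nfkbie, an inhibitor of NF-kB that is itself an NF-kB target, was lower, with a log2 difference of -1.28 (SE 0.10, limma adjusted p = 1.10e-05), Bcl3, a nuclear cofactor, at -0.83 (SE 0.08) and the subunit gene Rel at -0.80 (SE 0.09). Rela differed by -0.21 (limma adjusted p = 0.0971).

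Of 13 genes of the kinases downstream of the receptors, on the way to NF-kB or of the JNK and p38 routes, and of their adaptors, 5 were lower and 1 higher, with a median of 0.01. The shares were 38.5% lower and 7.69% higher, against 14.3% and 19.5% of all genes. Map3k14, which encodes NIK, the kinase of the alternative NF-kB route that TRAF2 holds in check, averaged 6.70 ± 0.12 in the Ly6C- F4/80high cells and 8.07 ± 0.11 in the Ly6C+ F4/80low cells (SD, n = 3 each). It was lower, with a log2 difference of -1.37 (SE 0.09, limma adjusted p = 4.35e-06) and of -1.34, -1.37 and -1.39 within mice 1, 2 and 3. Ikbkb and Mapk8 were lower, with differences of -0.50 and -0.46, and Ikbkg, the scaffold of the IKK complex, was higher by 0.35. Without mouse 3 Mapk8 and Ikbkg were not called (-0.42 with limma adjusted p = 0.0651, 0.30 with 0.0732).

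**Figure D4:**
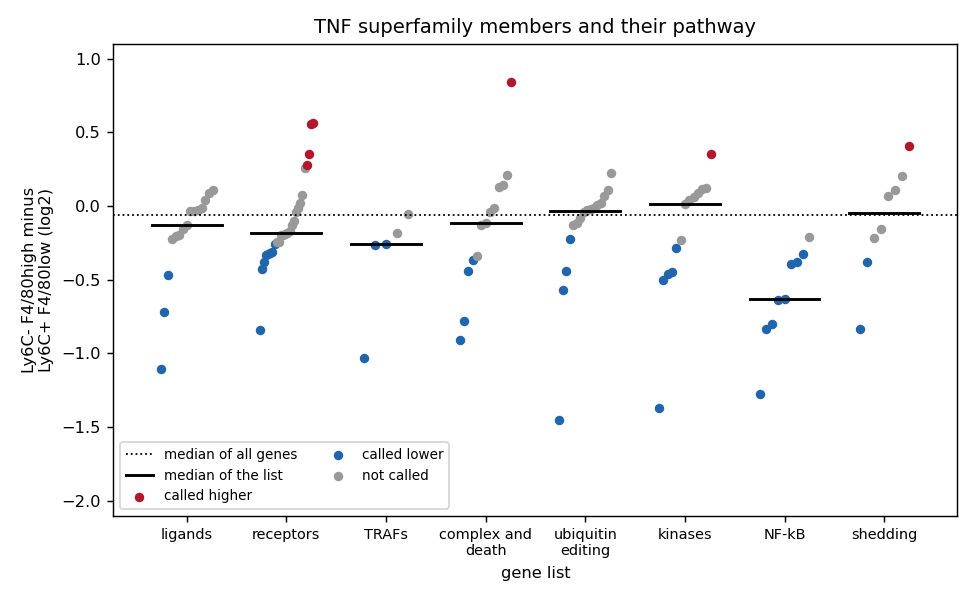
Differences (y axis, Ly6C- F4/80high minus Ly6C+ F4/80low, log2) of the 15 ligands, 26 receptors, 5 TRAFs and 5 pathway lists (x axis), 1 point per gene, with the median of each list as a bar and the median of all genes, -0.06, as a dotted line. The NF-kB list lies below the dotted line throughout, and Fadd is the highest point at 0.84.

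Of 13 genes of the receptor complex and of cell death, 4 were lower, 1 was higher and 8 were not called. The shares were 30.8% lower and 7.69% higher, against 14.3% and 19.5% of all genes. Birc3, a ubiquitin ligase that blocks death signals, was lower, with a log2 difference of -0.91 (SE 0.12), Ripk3, the kinase of necroptosis, at -0.78 (SE 0.09) and Cflar, the inhibitor of caspase-8, at -0.44 (SE 0.08). Fadd, the adaptor that joins death receptors to caspase-8, was higher, with 7.43 ± 0.14 in the Ly6C- F4/80high cells and 6.59 ± 0.15 in the Ly6C+ F4/80low cells, a difference of 0.84 (SE 0.10, limma adjusted p = 0.000176). Casp8 differed by -0.13 (limma adjusted p = 0.274).

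Of 16 genes of ubiquitin editing and feedback 4 were lower and 0 higher by limma, with 1 at an unadjusted p under 0.05 in the higher direction. The lower share was 25%, against 14.3% of all genes. Tnip3, a partner of the ubiquitin-editing enzyme A20, was lower, with a log2 difference of -1.45 (SE 0.11, limma adjusted p = 9.23e-06) and Tnip1 at -0.57 (SE 0.08), while Tnfaip3, which encodes A20, was not called (-0.02, interval -0.23 to 0.18, and 0.05 with a common median). Traf3ip3 lay under the background on the Ly6C- F4/80high arrays, where it was at least 1.18-fold lower. In the list of shedding genes 2 of 8 were lower and 1 higher (25% and 12.5%, against 14.3% and 19.5% of all genes). Timp3, an inhibitor of the protease that sheds TNF, also lay under the background on those arrays and was at least 1.05-fold lower. Of its Ly6C+ F4/80low arrays 2 reached above the background. The intramembrane proteases Sppl2a and Sppl2b went apart, at -0.38 and 0.41, and Adam17, the TNF-shedding protease, differed by -0.16 (limma adjusted p = 0.118).

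Some markers of other cell types were lower in the Ly6C- F4/80high subset as well. For comparison, 14.3% of all genes were called lower and 19.5% higher. Of 7 dendritic cell markers 4 were lower and 0 higher. The lower ones were Siglech, Flt3, Dpp4 and Ccr7, with Ccr7 at -0.38 and above the background on all arrays. Siglech and Flt3 lay under it on all Ly6C- F4/80high arrays and were at least 1.43-fold and 1.36-fold lower. Dpp4, though called, was under the background on all arrays, as were Xcr1 and Clec9a, which were not called. The log2 of the summed dendritic cell marker levels was 8.10 to 8.21 in the Ly6C- F4/80high arrays and 8.58 to 8.63 in the Ly6C+ F4/80low arrays. Of 6 endothelial markers 5 were lower, among them Tek, which was under the background on all arrays, and Kdr was not called (0.11). The summed log2 level of the endothelial markers was 8.21 to 8.31 on the Ly6C- F4/80high arrays and 8.98 to 9.13 on the Ly6C+ F4/80low arrays. Of 6 fibroblast markers 5 were lower, and Lum was under the background, with sums of 8.31 to 8.44 on the Ly6C- F4/80high arrays and 8.66 to 9.03 on the Ly6C+ F4/80low arrays. Of 8 neutrophil markers 2 were lower, both of them among the 5 under the background on all arrays, and the summed levels overlapped, at 9.78 to 9.79 on the Ly6C- F4/80high arrays and 9.77 to 9.86 on the Ly6C+ F4/80low arrays. Of 7 T cell markers 1 was lower and 1 higher, and their sums overlapped too, at 8.38 to 8.42 on the Ly6C- F4/80high arrays and 8.28 to 8.45 on the Ly6C+ F4/80low arrays. Of the natural killer cell markers 1 of 7 was lower and 5 were under the background, and of the mast cell, basophil and eosinophil markers 2 of 8 were lower and 7 under the background. Sums of the natural killer cell markers were 7.18 to 7.37 on the Ly6C- F4/80high arrays and 7.41 to 7.56 on the Ly6C+ F4/80low arrays. Those of the mast cell, basophil and eosinophil markers overlapped, at 7.521 to 7.815 and 7.775 to 7.941. Of 7 muscle markers 2 were lower and 0 higher. Pax7 of muscle stem cells was lower at -0.35 and above the background on all arrays. Myog, also lower, lay under it on all Ly6C- F4/80high arrays. Myod1, Acta1 and Ckm were above it on all arrays and not called (-0.14, 0.03 and 0.06), and Des and Myf5 were under it. The summed log2 levels of the muscle markers overlapped, at 8.62 to 8.72 on the Ly6C- F4/80high arrays and 8.70 to 8.76 on the Ly6C+ F4/80low arrays. The part of any of these cells in the differences of the members was not tested.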

How the data were processed

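RNA of 6 sorted samples was measured on 1 Affymetrix array each. The authors deposited RMA values, per the submitters' processing notes, and their range is that of a log2 scale. The sources used here state no software, version or settings for RMA, which shrinks differences between weak signals. Arrays have no read depth, so the precision rests on their number.

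Of 35556 probe sets 21789 had 1 gene symbol, 1621 several and 12146 none in the platform annotation, and for each of 19938 genes the probe set of highest mean level was kept. All 46 members kept their symbol in RefSeq (GRCm38.p6). All genes, unfiltered, entered a two-sided limma test (limma 3.58.1, R 4.3.3, lmFit and eBayes) with Benjamini-Hochberg adjustment. The members, gene lists, background and tests were chosen with earlier results of these data known. All members were named. Of each pathway list up to 3 called genes in each direction with the largest differences were named. Rela, Casp8, Tnfaip3, Adam17 and the marker genes given with values were added after their values were seen. A fold against a subset whose 3 arrays lay under the background sets those arrays to it, keeps the other subset's mean and is a lower bound.

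Both subsets came from the same animal, per the labels, so mouse numbers pair the arrays. Deviations of the paired arrays from their subset means correlated at 0.03, -0.08 and 0.09. Since the sources name no paired test, the mouse as a block was an alternative. On simulated data with 200 changed genes among 19938, limma recovered 50.7% of those changed by 0.5, 97.0% by 1 and 100.0% by 2, with 8 false calls among 173. In the data themselves 3887 genes were called higher and 2861 lower. The adjusted threshold depends on the share of changed genes, so these rates need not hold for the data. Sequences are RefSeq's.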

Additional observations from a re-analysis of the deposited data

How the results depend on the processing

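The number of arrays and the weak signal of many members limit these results: 12 members were under the background on all 6 arrays, and calls with differences under about 0.5 changed most. The counts were 4 members higher and 14 lower, and 3 pathway genes higher and 23 lower. With a common median 9 members were lower and 6 pathway genes higher, and with all probe sets tested 7 members were lower. Pathway genes called higher numbered 5 without the lowest 25% of genes, 6 without the lowest 50%, 6 without genes under the background and 5 with a trended robust prior. Leaving out an array or a mouse gave 1 to 4 members higher, 6 to 18 lower, 2 to 4 pathway genes higher and 17 to 24 lower. Over all genes the same fits gave 2677 to 3597 higher and 1321 to 3290 lower. With the mouse as a replicate block 4 members were higher and 11 lower, the calls of Tnfrsf9, Traf2 and Traf4 were lost, and no other member's call changed. The pathway counts were then 3 and 22. Over all genes the split was 3887 higher and 2861 lower, and 4789 and 1737 with a common median. Quantile normalization and cyclic loess normalization (added after seeing the data) both ended the calls of Tnfrsf8 (-0.24 in both), Cd27 (-0.22 and -0.19), Tnfrsf9 (-0.26 and -0.25), Traf4 (-0.23 and -0.22) and Tnfrsf21 (0.24 and 0.21). The cause of these changes was not tested. Among the 18 called members and the 17 called pathway genes named, no difference changed sign under any alternative. Of the uncalled pathway genes named, Tnfaip3 changed sign in 3 of 21 alternatives, Rela was called in 3 and Adam17 in 1. Another 9 members were called in some alternative, with no sign changed. Of the 19 members called in none, 12 changed sign in some.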

Other observations

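Several members lie next to each other in the RefSeq gene table (GRCm38.p6) with no other protein-coding gene between them. Tnfsf9, Cd70 and Tnfsf14 form one such row on chromosome 17. At its ends Tnfsf9 and Tnfsf14 were lower, with differences of -0.72 and -1.11, while Cd70 between them was under the background on all 6 arrays. Ltb, Tnf and Lta, also neighbours on chromosome 17, differed by 0.09, -0.01 and 0.04, with 0 of the 3 called. The row of Tnfrsf26, Tnfrsf22 and Tnfrsf23 on chromosome 7 had differences of 0.56, 0.55 and 0.26, the first 2 of them called. Tnfsf4, Tnfsf18 and Fasl on chromosome 1 were all under the background. Tnfrsf1b and Tnfrsf8, neighbours on chromosome 4, were both lower (-0.26 and -0.33), and both calls were lost when all probe sets were tested.

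Tnfrsf11a and Tnfsf11, the RANK receptor and its ligand, were not called in the reported fit, and other settings differed in the call but not in the sign. Of the 12 alternatives that kept all arrays, 6 left Tnfrsf11a uncalled and 8 left Tnfsf11 uncalled, and the others called them lower. Tnfrsf11a was called at -0.28 after quantile normalization (limma adjusted p = 0.0472) and at -0.32 after cyclic loess normalization (limma adjusted p = 0.0248). Tnfsf11 was called at -0.27 (limma adjusted p = 0.0407) and -0.26 (limma adjusted p = 0.0375) in the same fits. With a common median they were not called, at -0.16 (limma adjusted p = 0.207) for Tnfrsf11a and -0.14 (limma adjusted p = 0.221) for Tnfsf11, nor with all probe sets tested (limma adjusted p = 0.124 and 0.130).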
